A study of Homo sapiens with 10 samples.

Results

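Aminoacyl-tRNA synthetases, the enzymes that attach each amino acid to its transfer RNA (tRNA), were taken as the genes with a symbol made of an amino acid letter, ARS and an optional 1 or 2, plus EPRS1, FARSA and FARSB. The rule matched 37 human genes in the RefSeq gene table, and 31 of them were named among the 17687 genes measured on the arrays. The other matched genes were not analysed here. Of the 31 measured genes, 14 encode cytosolic enzymes, 15 mitochondrial enzymes, and 2, GARS1 and KARS1, encode enzymes that work in both places.

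The study measured RNA from human myeloid cell lines on 10 single-colour arrays, with 1 array per condition. Cells received OR21, a hypomethylating agent also written OR-2100, for 96 hours. The dose was 500 nM for HL60 and K562 cells and 100 nM for MDSL and SKM1 cells. Each line also gave an array of control cells, and 2 derivatives of HL60, AZA resistant and OR21 resistant, were measured without added drug against the parental HL60 control. HL60 cells come from acute and K562 cells from chronic myeloid leukaemia, while MDSL, which is grown with interleukin-3, and SKM1 come from myelodysplastic syndrome. How the resistant derivatives were selected, and whether they are clones, was not given in the sources used here. Below, the values of the 4 lines stand in the order HL60, MDSL, SKM1, K562, a level is a log2 intensity, and a difference is OR21 minus control of the same line, so that -1 is a 2-fold lower intensity.

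Most amino acids have a cytosolic synthetase and a separate mitochondrial one, both encoded in the nucleus, and the mitochondrial enzymes carry the suffix 2. Several cytosolic enzymes are bound together in the multisynthetase complex. When a tRNA stays uncharged, the kinase GCN2 phosphorylates eIF2alpha, translation of the transcription factor ATF4 goes up, and ATF4 raises transcription of amino acid synthesis genes and of cytosolic synthetases. The transcription factor MYC is known to act on genes of protein synthesis, and WARS1 is known as a gene induced by interferon gamma.

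Promoter windows of 300 bases, from 250 before to 50 after a RefSeq transcription start (build GRCh38.p14), existed for 27 of the 31 genes. The 4 windows printed here are shown because each holds a motif of these regulators. Both strands were searched for TGATGNAA, the composite element read by ATF4 with a C/EBP partner, for CACGTG, the E-box read by MYC with MAX, and for the core of the interferon-stimulated response element. No 2 of these motifs overlapped in a printed window. Capitals mark the motif, which stands in the reverse orientation in the ATF4 and interferon elements printed here.
IARS1, chr9:92293648-92293947, minus strand, E-box and ATF4 element: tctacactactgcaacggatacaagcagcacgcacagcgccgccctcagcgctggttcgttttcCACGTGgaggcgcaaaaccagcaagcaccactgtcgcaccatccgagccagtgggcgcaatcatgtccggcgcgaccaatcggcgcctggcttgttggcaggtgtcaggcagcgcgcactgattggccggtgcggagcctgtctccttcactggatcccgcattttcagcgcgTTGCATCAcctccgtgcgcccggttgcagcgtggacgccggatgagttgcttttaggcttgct
CARS1, chr11:3057374-3057673, minus strand, ATF4 element: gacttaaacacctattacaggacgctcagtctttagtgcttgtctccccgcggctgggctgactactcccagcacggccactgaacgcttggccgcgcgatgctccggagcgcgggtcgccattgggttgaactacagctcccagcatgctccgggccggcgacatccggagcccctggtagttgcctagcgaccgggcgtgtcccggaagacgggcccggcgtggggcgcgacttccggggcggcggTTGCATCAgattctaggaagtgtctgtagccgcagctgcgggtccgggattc
MARS2, chr2:197705119-197705418, plus strand, E-box: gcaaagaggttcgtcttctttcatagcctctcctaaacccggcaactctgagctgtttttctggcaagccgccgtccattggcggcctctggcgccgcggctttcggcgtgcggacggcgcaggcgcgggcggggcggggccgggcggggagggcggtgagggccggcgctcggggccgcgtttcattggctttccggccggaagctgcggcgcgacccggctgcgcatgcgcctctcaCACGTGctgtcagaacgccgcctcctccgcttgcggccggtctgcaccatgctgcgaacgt
WARS1, chr14:100375298-100375597, minus strand, interferon element: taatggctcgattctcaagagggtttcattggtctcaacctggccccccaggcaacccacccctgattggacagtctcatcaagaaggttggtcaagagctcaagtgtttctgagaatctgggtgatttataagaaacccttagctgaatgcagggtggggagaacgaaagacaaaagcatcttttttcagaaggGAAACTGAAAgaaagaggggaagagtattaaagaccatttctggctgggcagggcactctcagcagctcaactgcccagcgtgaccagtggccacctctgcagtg

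The ATF4 element was present in 7 of the 27 genes, a share of 25.9%, against 4.46% of all 27305 genes with such a window. They were the cytosolic AARS1, CARS1, IARS1, NARS1 and TARS1, GARS1 of both compartments, and the mitochondrial YARS2. In CARS1 the element begins 2 bases before the start and in IARS1 13 bases before it. The E-box was found in 4 genes, the mitochondrial CARS2, EARS2 and MARS2 and the cytosolic IARS1, a share of 14.8% against 8.77% of all genes. The interferon element was found in EARS2 and, 55 bases before an inner start, in WARS1, a share of 7.41% against 4.38% of all genes. A match describes letters in a window and shows no binding.

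Gene medians of the 10 arrays lay between 6.63 and 7.05 log2. Hybridisation spikes averaged 11.71 log2 on the array of treated HL60 and 10.85 to 11.10 on the others, so counts over the 4 lines are also given without HL60. Marker genes went with the labels in part. Of 4 measured neutrophil promyelocyte markers, all 4 were at 13.78 log2 or more in control HL60. Their median was 14.50 log2 there, 15.05 in control SKM1, 10.09 in control MDSL and 5.74 in control K562. They thus do not set HL60 apart from SKM1. Of 3 measured erythroid markers, all 3 were at 13.14 or more in control K562, but GATA1 also stood at 10.99 in control MDSL. Of 11 measured markers of lymphocytes, epithelium and fibroblasts, 5 to 7 lay above the background median of each control array. The B cell marker MS4A1 was under it in all 4 controls. Another B cell marker, CD79A, was above it in all 4, from 7.31 log2 in K562 to 11.49 in MDSL. The epithelial EPCAM stood at 13.31 log2 in control K562 and 12.46 in control SKM1. On the treated arrays 8, 4, 6 and 8 of these markers lay above background, against 5, 6, 5 and 7 on the controls. In HL60 the T cell marker CD3D stood at 7.21 log2 with OR21 and 3.96 in the control, and the epithelial CDH1 at 7.36 and 3.77. The median of the promyelocyte markers was 11.59 log2 in treated HL60, against 14.50 in the control, and the erythroid GATA1 had 10.29 in treated SKM1, against 6.49. The part of these shifts in the synthetase differences was not tested. The labels do not name separate cultures, so the spread between arrays of 1 line is unknown.

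Across the 4 lines the synthetase genes were lower with OR21 in most cases, but none passed the test of single genes. The difference was below 0 in all 4 lines for 22 of 31 members and above 0 in all 4 for 0, while 15.3% of all 17687 genes were lower in all 4 lines. Leaving HL60 out, 22 of 31 members were lower in the other 3 lines, against 20% of all genes. The median of the mean differences was -0.72 log2 over the 31 members, against -0.02 over all genes. It was -0.55 for the 14 cytosolic and -0.89 for the 15 mitochondrial genes. Without HL60 these medians were -0.39 and -0.74.

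The limma fit with the line as a block called 0 of the 31 members at an adjusted p under 0.05, and 0.0396% of all genes. Adjusted p ran from 0.102 for FARS2 to 0.861 for CARS1. At an unadjusted p under 0.05, 17 members were lower and 0 higher, and 10.1% of all genes were lower. Lines, doses and array noise are mixed in this spread, since each line stands for 1 replicate.

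**Figure D1:**
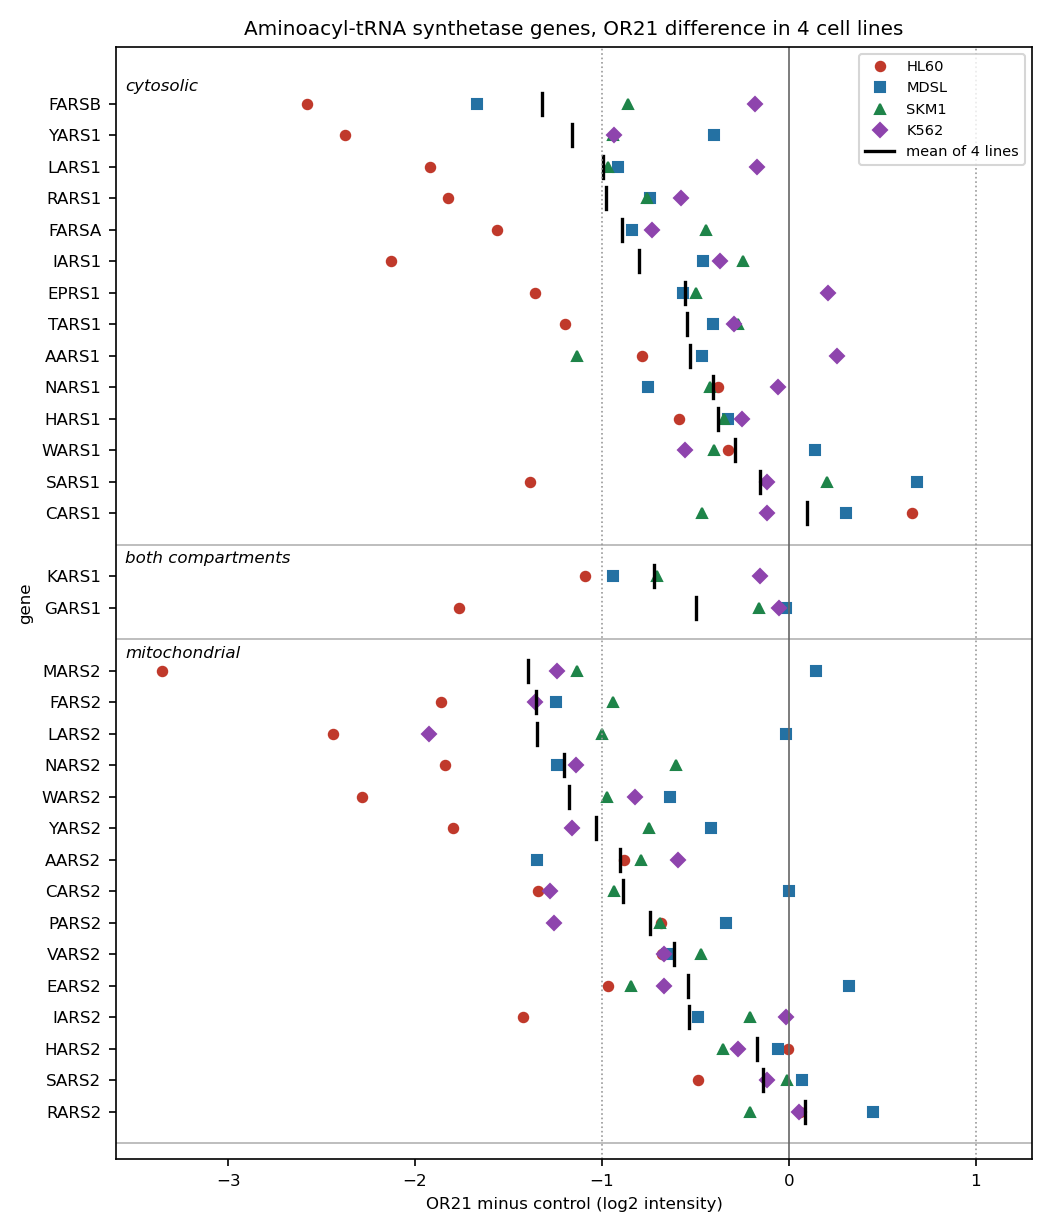
OR21 minus control in log2 intensity (x axis) for the 31 synthetase genes (y axis), grouped by the compartment of the enzyme and ordered by the mean of 4 lines (black bar). Points are single lines, with 1 array per condition, and dotted lines mark 2-fold. HL60 points lie farthest left for many genes, MARS2 in HL60 is the lowest at -3.35, and most bars lie left of 0.

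Among cytosolic genes, those of the phenylalanine, tyrosine, leucine and arginine enzymes had the lowest means. FARSB, the beta subunit of cytosolic phenylalanyl-tRNA synthetase, had levels of 11.38, 10.94, 12.75 and 13.71 log2 with OR21, against 13.95, 12.61, 13.61 and 13.89 in the controls. Every treated array was below its own control, with -2.58 in HL60 and -0.18 in K562. The mean difference was -1.32 ± 1.03 log2 (SD, n = 4 lines, limma adjusted p = 0.161).

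FARSA, which encodes the catalytic alpha subunit of the same enzyme, had 12.74, 13.12, 13.84 and 13.66 log2 with OR21 and 14.30, 13.96, 14.29 and 14.39 in the controls. In each line the treated array was below its control, and the mean difference was -0.89 ± 0.47 (limma adjusted p = 0.138). In K562 the subunits went apart, with -0.73 for FARSA and -0.18 for FARSB. YARS1, tyrosyl-tRNA synthetase, had 10.02, 11.21, 11.01 and 11.97 log2 with OR21 and 12.39, 11.62, 11.95 and 12.90 in the controls, a mean difference of -1.16 ± 0.85. LARS1, leucyl-tRNA synthetase and a leucine sensor of the mTORC1 pathway, had 11.42, 11.12, 11.99 and 13.11 with OR21 and 13.34, 12.04, 12.96 and 13.28 in the controls. LARS1 was lower by close amounts in MDSL and SKM1, at -0.91 and -0.97, and differed by -0.17 in K562. RARS1, arginyl-tRNA synthetase, differed by -1.82, -0.75, -0.76 and -0.58.

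The other cytosolic members were nearer to 0. IARS1, which charges isoleucine, differed by -2.13 in HL60 and by -0.46 to -0.25 in the other 3 lines. EPRS1, the fused enzyme for glutamate and proline, and AARS1, for alanine, were lower in 3 lines and differed by 0.21 and 0.26 in K562. TARS1, for threonine, NARS1, for asparagine, and HARS1, for histidine, were lower in all 4 lines with means of -0.54, -0.40 and -0.38. CARS1, for cysteine, went both ways, with differences of 0.66, 0.31, -0.47 and -0.12. SARS1, for serine, differed by -1.39, 0.68, 0.20 and -0.12.

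WARS1, the cytosolic tryptophan enzyme, had 13.50, 10.83, 11.24 and 12.93 log2 with OR21, against 13.83, 10.69, 11.64 and 13.49 in the controls. It was lower in 3 of 4 lines and 0.14 higher in MDSL, with a mean of -0.29 ± 0.30 (SD, n = 4 lines, limma adjusted p = 0.469, 95% interval -0.75 to 0.17). EIF2AK2, the interferon-inducible kinase PKR, differed by 0.48, 2.37, 0.96 and 0.84 on the same arrays (limma adjusted p = 0.153). The largest EIF2AK2 difference was in MDSL, and WARS1 differed by -0.33, 0.14, -0.40 and -0.56. A link between these genes was not tested.

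Of the 2 genes that serve both compartments, GARS1, glycyl-tRNA synthetase, had 11.99, 12.26, 13.47 and 14.05 log2 with OR21 and 13.75, 12.28, 13.63 and 14.11 in the controls. Its difference was -1.77 in HL60 and between -0.16 and -0.02 in the other lines, so its mean of -0.50 rests on HL60. KARS1, lysyl-tRNA synthetase, differed by -1.09, -0.94, -0.70 and -0.16, a mean of -0.72 ± 0.41 (limma adjusted p = 0.164).

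Mitochondrial genes with the lowest means were those for methionine, phenylalanine, leucine, asparagine and tryptophan. FARS2, the single-chain phenylalanine enzyme of mitochondria, had 8.00, 6.70, 8.09 and 8.93 log2 with OR21 and 9.86, 7.95, 9.03 and 10.28 in the controls. Its differences were -1.86, -1.25, -0.94 and -1.36, with a mean of -1.35 ± 0.38 (SD, n = 4 lines) and the smallest p of the family (limma adjusted p = 0.102, 95% interval -1.85 to -0.85).

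MARS2, methionyl-tRNA synthetase, had 6.68, 7.70, 7.92 and 7.10 log2 with OR21 and 10.04, 7.55, 9.05 and 8.34 in the controls. Its range over lines was the widest of the family, from -3.35 in HL60 to 0.15 in MDSL, around a mean of -1.39 ± 1.45 (limma adjusted p = 0.225). Without HL60 its mean was -0.74, and 7 mitochondrial members, led by FARS2 at -1.18, were lower. LARS2, the leucine enzyme, had 5.49, 5.90, 6.46 and 7.06 with OR21 and 7.93, 5.92, 7.46 and 8.99 in the controls. Its difference was -2.44 in HL60, -0.01 in MDSL and -1.93 in K562, and in SKM1 it was 2-fold lower. The treated HL60 level of LARS2 lay just above the array's background median of 5.43, so the size of its HL60 difference is uncertain. Both MDSL levels were also low, against background medians of 4.98 in the control and 5.42 in the treated array. The MDSL difference is thus uncertain too.

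NARS2, for asparagine, had 6.51, 7.84, 8.07 and 8.65 log2 with OR21 and 8.35, 9.08, 8.68 and 9.78 in the controls, a mean difference of -1.21 ± 0.51 (limma adjusted p = 0.117). WARS2, the mitochondrial tryptophan enzyme, differed by -2.28, -0.63, -0.97 and -0.83. YARS2, for tyrosine, differed by -1.80, -0.42, -0.75 and -1.16. In all 3 genes every line was below its control.

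AARS2, for alanine, differed by -0.88, -1.35, -0.79 and -0.59 (limma adjusted p = 0.122). Its treated levels of 4.67 in MDSL and 5.24 in SKM1 were under the background medians, so the sizes of those 2 differences are uncertain. EARS2, for glutamate, was under background in treated HL60 at 5.12 log2, and it differed by 0.32 in MDSL. CARS2, for cysteine, differed by -1.34, 0.00, -0.94 and -1.28, and PARS2, for proline, by -0.68, -0.34, -0.69 and -1.26. VARS2, the valine enzyme, varied least among the 31, from -0.68 to -0.47. Its treated MDSL level of 5.63 log2 lay close to the background median of 5.42, so its narrow range is uncertain. IARS2, for isoleucine, differed by -1.42 in HL60 and -0.01 in K562. HARS2, SARS2 and RARS2, for histidine, serine and arginine, had means of -0.17, -0.14 and 0.09, and the mean of RARS2 became -0.04 under median centring.

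The lines differed in which compartment was lower. In HL60, 9 of 14 cytosolic and 8 of 15 mitochondrial genes were at least 2-fold lower, where 11.1% of all genes were, and the medians were -1.37 for cytosolic and -1.34 for mitochondrial genes. In K562, also at 500 nM, 0 of 14 cytosolic and 7 of 15 mitochondrial genes were at least 2-fold lower, against 3.86% of all genes, with medians of -0.22 and -0.83. The 7 were CARS2, FARS2, LARS2, MARS2, NARS2, PARS2 and YARS2.

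Of all 31 members, 4 in MDSL and 3 in SKM1, both at 100 nM, were at least 2-fold lower, against 7 in K562 at 500 nM. Under median centring the count was 9 in SKM1 and 8 in K562, and with quantile normalization 7 in each, so the order of these lines turned with the scaling. In MDSL 1 cytosolic gene, FARSB, and 3 mitochondrial genes, AARS2, FARS2 and NARS2, were at least 2-fold lower, against 4.88% of all genes. The MDSL medians were -0.46 for cytosolic and -0.34 for mitochondrial genes. In SKM1 the genes past 2-fold were AARS1 and the mitochondrial LARS2 and MARS2, against 4.47% of all genes, with medians of -0.46 and -0.75. All of these single-line comparisons have 1 array per condition, with no replicate check, and the difference between compartments was not tested.

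**Figure D2:**
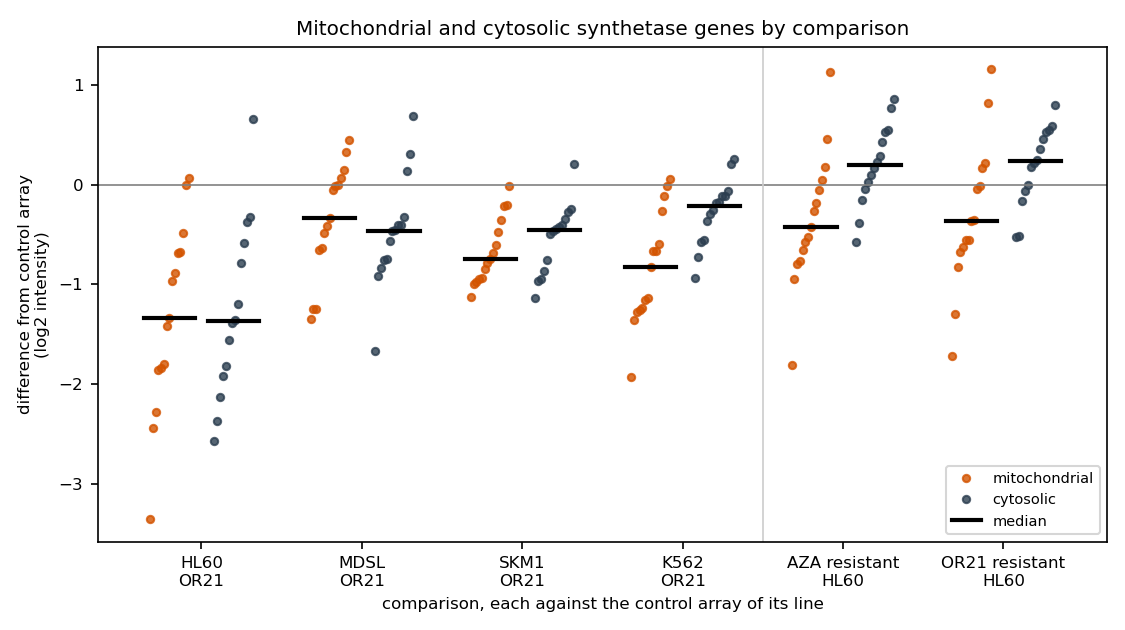
Difference from the control array of the line in log2 intensity (y axis) for 15 mitochondrial and 14 cytosolic synthetase genes in 4 OR21 comparisons and in 2 resistant HL60 derivatives (x axis). Points are genes and black bars are medians. In HL60 the bars are level at -1.34 and -1.37, in K562 they stand at -0.83 and -0.22, and in both derivatives the cytosolic bar is above 0 and the mitochondrial bar below it.

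Enzymes of 1 amino acid in the 2 compartments could be compared in 12 pairs, with FARS2 set against both FARSA and FARSB. In K562 the mitochondrial difference was the lower one in 9 of 12 pairs, with a median gap of -0.45 log2, and in HL60 in 6 of 12, with a median gap of 0.24. The count was 8 of 12 in MDSL and in SKM1. The K562 gap of LARS2 to LARS1 was -1.76 log2, and in MDSL, where LARS2 was low on both arrays, it was above 0. The arginine pair went the other way, with RARS2 above RARS1 in each line. These gaps compare differences, not levels, since levels of separate probe sets are not on 1 scale.

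**Figure D3:**
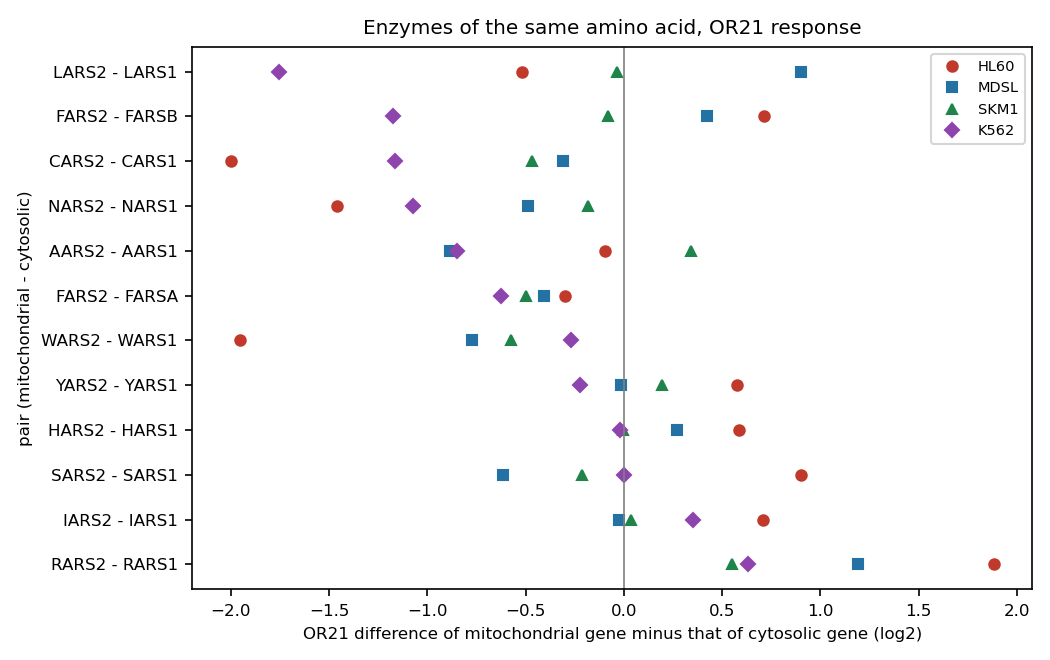
OR21 difference of the mitochondrial gene minus that of the cytosolic gene for the same amino acid, in log2 (x axis), for 12 pairs (y axis) ordered by K562. Points are the 4 lines, each with 1 array per condition. K562 is left of 0 in 9 of 12 pairs, and the RARS2 and RARS1 pair is right of 0 in all 4 lines.

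By enzyme architecture both classes had a median below 0, and the difference between them was not tested. Class I enzymes, whose catalytic domain is a Rossmann fold, had a median mean difference of -0.89 log2 over 15 measured members, 10 of them lower in all 4 lines. Class II enzymes, built on antiparallel sheets, had -0.54 over 15 members, 12 of them lower in all 4 lines. Without HL60 the medians were -0.68 for class I and -0.45 for class II, and the counts lower in the other 3 lines were again 10 and 12. Of all genes, 15.3% were lower in all 4 lines and 20% in the 3 lines other than HL60. EPRS1 holds a domain of each class and was counted in neither. Of 8 enzymes of the multisynthetase complex 5 were measured, EPRS1, IARS1, KARS1, LARS1 and RARS1. All 5 were at least 2-fold lower in HL60, against 11.1% of all genes, while in K562 their differences ran from -0.58 to 0.21. AIMP1, the 1 measured scaffold protein of the complex, differed by -1.08, -0.20, -0.22 and -0.07 (limma adjusted p = 0.402).

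The resistant derivatives were compared with the parental HL60 control array, which both share with the OR21-treated HL60 comparison. In AZA resistant cells 10 of 14 cytosolic genes were higher and 11 of 15 mitochondrial genes lower, with medians of 0.19 and -0.42 log2, while 48.5% of all genes were higher and 51.5% lower. In OR21 resistant cells the counts were 9 of 14 higher and 11 of 15 lower, with medians of 0.24 and -0.37, while 44.3% of all genes were higher and 55.7% lower. Under median centring, which moves each array's gene median to 1 value, the AZA resistant cytosolic genes split into 7 higher and 7 lower, with a median of 0.03, and 12 of 15 mitochondrial genes were lower, while 35% of all genes were higher and 65% lower. The OR21 resistant counts were then 9 of 14 higher, with a median of 0.09, and 11 of 15 lower, while 33.2% of all genes were higher and 66.8% lower. As a share, 73.3% of the mitochondrial genes were lower in each derivative before centring. After it, 80% were lower in AZA resistant and 73.3% in OR21 resistant cells. The centred mitochondrial medians were -0.59 and -0.52, against -0.18 and -0.22 over all genes. The gap to all genes was not tested.

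A change of 2-fold was rare in the derivatives. In AZA resistant cells 1 member was at least 2-fold lower, CARS2, against 5.11% of all genes, and 1 at least 2-fold higher, IARS2, against 7.04%. In OR21 resistant cells CARS2 and LARS2 were at least 2-fold lower, against 4.27% of all genes, and IARS2 at least 2-fold higher, against 7.69%. These shares of the 31 members are near those of all genes. Under median centring the AZA resistant count was 2 lower and 0 higher.

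CARS2 had 10.07 log2 in AZA resistant, 10.16 in OR21 resistant and 10.54 in OR21-treated HL60, against 11.88 in the parental control. All 3 arrays were thus more than 2-fold below the control. IARS2 had 12.92 and 12.95 log2 in the AZA and OR21 resistant cells, against 11.80 in the parental control, whereas treated HL60 stood at 10.37. EPRS1, its neighbour on chromosome 1, had 13.32 and 13.26 in the derivatives, against 12.46 in the control, and 11.10 in treated HL60. For both genes the derivatives lay above the control and the treated array below it.

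MARS2, with the lowest difference in treated HL60, stood at 9.24 and 9.41 log2 in the AZA and OR21 resistant cells, against 10.04 in the parental control. GARS1 had 13.76 and 13.97 in the derivatives, against 13.75 in the control, and FARSB 14.12 and 14.21, against 13.95. NARS2 differed by 0.46 and 0.81, next to IARS2 among mitochondrial members. Of the 6 cytosolic or dual genes with an ATF4 element, AARS1, CARS1, NARS1 and TARS1 differed by 0.54, 0.77, 0.23 and 0.43 in AZA resistant cells, and GARS1 and IARS1 by 0.00 and 0.03. In OR21 resistant cells AARS1, CARS1, NARS1 and TARS1 differed by 0.52, 0.58, 0.36 and -0.01, and GARS1 and IARS1 by 0.22 and -0.16. EPRS1 and SARS1, whose windows hold no ATF4 element, differed by 0.86 and 0.53 in AZA resistant cells and by 0.80 and 0.55 in OR21 resistant cells. FARSB and RARS1, also without it, differed by 0.16 and 0.29 in AZA resistant and by 0.25 and 0.46 in OR21 resistant cells. The remaining cytosolic or dual genes without it, HARS1, KARS1, FARSA and WARS1, differed by -0.15, -0.35, -0.39 and -0.57 in AZA resistant cells. In OR21 resistant cells they differed by -0.07, -0.22, -0.52 and -0.53. The part of the element was not tested.

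**Figure D4:**
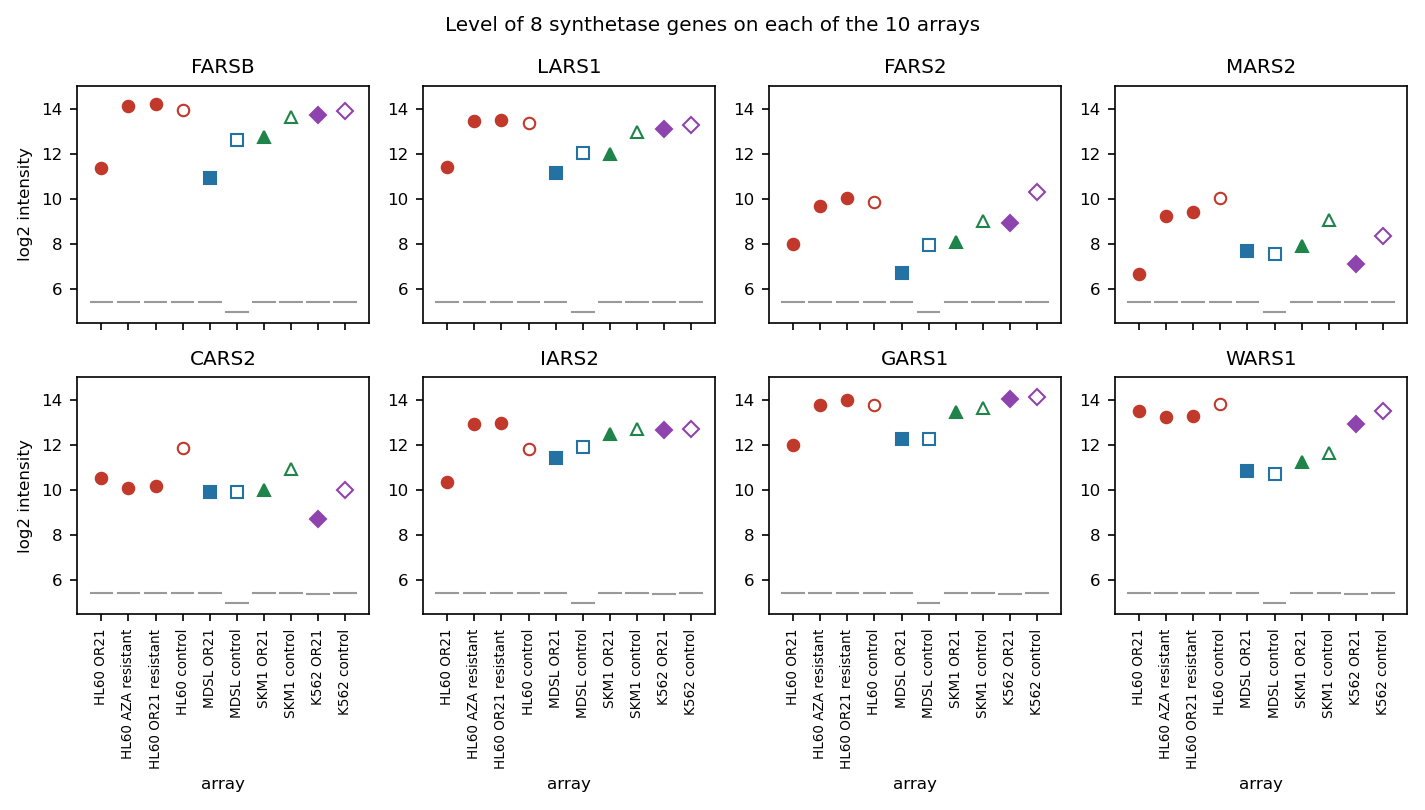
Level in log2 intensity (y axis) of 8 synthetase genes on each of the 10 arrays (x axis). Open symbols are untreated parental controls, filled symbols treated or resistant cells, colours are cell lines, and grey dashes mark the background median of each array. For CARS2 all 3 other HL60 arrays lie below the control, and for IARS2 the derivatives at 12.92 and 12.95 lie above the control at 11.80.

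Other genes of tRNA charging and amino acid stress were read from fixed lists. Of 9 other charging enzymes 5 were lower and 0 higher in all 4 lines, against 15.3% and 12.2% of all genes. In the 3 lines other than HL60, 5 were lower and 2 higher, against 20% and 17.2% of all genes. The limma test passed 0 of them. GATB, a subunit of the amidotransferase that makes mitochondrial glutaminyl-tRNA, had 8.19, 7.71, 8.90 and 9.07 log2 with OR21 and 10.35, 8.91, 10.16 and 9.98 in the controls, a mean of -1.38 ± 0.54 (SD, n = 4 lines, limma adjusted p = 0.107). QRSL1, another subunit of it, differed by -2.03, -0.21, -0.93 and -1.13. GATB was also lower in AZA and OR21 resistant cells, by -1.38 and -1.05. SEPHS1, a selenophosphate synthetase homologue, differed by a mean of -1.08 ± 0.19 (limma adjusted p = 0.102), and TARS3, a second cytosolic threonine enzyme outside the rule, by -1.73, 0.05, -1.11 and -0.19.

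The 20 genes of the integrated stress response and ATF4 targets, all measured, had a median mean difference of -0.35 log2, with 6 lower and 2 higher in all 4 lines (15.3% and 12.2% of all genes) and 0 past the limma test. ATF4 itself differed by -0.46, 0.17, -0.42 and -0.63. The serine synthesis genes PHGDH and PSAT1 differed by -3.77 and -2.50 in HL60, and ASNS, asparagine synthetase, by -3.20, 0.17, -1.09 and 0.12. Without HL60 the median was -0.23, with 7 lower and 2 higher in the other 3 lines (20% and 17.2% of all genes). In AZA resistant cells 17 of 20 were higher, with a median of 0.54, against 48.5% of all genes. In OR21 resistant cells 12 of 20 were higher, with a median of 0.21, against 44.3% of all genes. Under median centring the AZA resistant median was 0.38, with 16 of 20 higher, against 35% of all genes. The OR21 resistant median was then 0.06, with 11 of 20 higher, against 33.2% of all genes. Without centring, ATF4 was higher by 0.91 in AZA resistant and 0.71 in OR21 resistant cells. PSAT1 was higher by 1.68 and 1.23 and PHGDH by 1.21 and 1.59, while ASNS differed by -0.76 and -1.25.

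In the eIF2alpha kinase list 7 of 8 genes were measured and 0 passed, and 5 of the 7 had a mean difference above 0, with a median of 0.21 log2. PPP1R15A, the stress-induced subunit of an eIF2alpha phosphatase, had a mean of 0.54 (limma adjusted p = 0.261). The other 2 had means below 0. EIF2S1, the eIF2alpha subunit, differed by -1.44, -0.50, -0.68 and -1.05, and EIF2AK4, which encodes GCN2, by -1.57, -0.46, -0.08 and -0.21. Of 9 elongation factors 4 were measured and 0 passed. The mitochondrial TSFM and GFM1 had means of -0.80 and -0.60, and the cytosolic EEF1A1 and EEF1D 0.11 and 0.12. MYC had 10.54, 11.51, 11.94 and 12.83 log2 with OR21 and 15.17, 13.99, 14.41 and 13.59 in the controls (limma adjusted p = 0.122). MYC differed by -4.62, -2.48, -2.47 and -0.76. The cytosolic medians of the same lines were -1.37, -0.46, -0.46 and -0.22, and the mitochondrial medians -1.34, -0.34, -0.75 and -0.83. The part of MYC in the synthetase differences was not tested.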

How the data were processed

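Biotin-labelled total RNA was measured on 10 single-colour arrays, per the labels. Each deposited column held linear intensities from 4.25 to 405294, and what the authors did to correct background and normalize them was not given in the sources used here. Quartiles were close between arrays, so the intensities were treated as normalized, and log2 was taken without a pseudocount. The platform annotation gave 1 symbol to 17709 probe sets, several to 0, and none to 3739 gene or transcript probe sets. A RefSeq gene table (GRCh38.p14) updated 0 symbols. The brightest probe set was kept for 20 genes with several, leaving 17687, and each synthetase had 1 probe set. 0 columns belonged to no sample. Arrays give no depth, and their number limits the precision.

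OR21 was tested over the 8 treated and control arrays with limma 3.58.1 in R 4.3.3 (lmFit, eBayes, two-sided, Benjamini-Hochberg over all genes), with the cell line as a block, since both arrays of a pair came from the same line. Single-line and resistant comparisons were counted at 2-fold without a test. Members and lists were chosen with earlier results of these data known. Genes described array by array were those with the lowest and highest mean differences in each compartment, the widest range over lines, the largest differences in the derivatives, and GARS1, KARS1 and WARS1, to which others were added after their values were seen. Alternatives were quantile normalization, median centring, the mean of probe sets, no line block, dropping dim genes (mean level below percentile 30), and leaving out each line. A planned comparison of protein sequences was not run.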

Additional observations from a re-analysis of the deposited data

Results flagged for a closer look

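The OR21 differences of the 4 lines were searched for 1 line far from the other 3. HL60 stood apart for GARS1 at -1.77 log2, IARS1 at -2.13, RARS1 at -1.82 and TARS1 at -1.20. The treated HL60 array also stood apart in its hybridisation spikes, at 11.71 log2, and its part in these differences was not tested. SKM1 stood apart for VARS2 at -0.47, where the whole range of the 4 lines was 0.20. Chance flags about 1 in 20 such groups, and 31 members were searched.

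SARS1 was lower in both lines at 500 nM, by -1.39 in HL60 but only -0.12 in K562. It was higher in both at 100 nM, by 0.68 in MDSL and 0.20 in SKM1. The mean difference of HL60 and K562 lay at -1.19 relative to that of MDSL and SKM1. This difference was not tested, and dose, disease and line cannot be told apart in it.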

How the results depend on the processing

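The count of synthetases past the limma threshold was 0 under every alternative run. Over all genes the count of 7 was 1 with no replicate block (paired lines ignored) and 0 to 5 with 1 line left out. It was 0 without SKM1 (2181 genes at an unadjusted p under 0.05), 1 without HL60 and 2 without K562. At an unadjusted p under 0.05 the 17 synthetases were 5 with no replicate block and 15 to 24 otherwise. The number lower in all lines used was 19 with quantile normalization, 22 with median centring and 22 to 26 with a line left out. Mean differences changed sign for 3 members near 0. With median centring CARS1 was -0.0305 and RARS2 -0.0388. Leaving out a line gave -0.092 to 0.28 for CARS1, -0.0322 to 0.19 for RARS2 and -0.43 to 0.26 for SARS1. Sign changes came without HL60 for CARS1 and SARS1 and without MDSL for RARS2. The cause was not tested.

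Over all genes the median difference under median centring was -0.22 in HL60, -0.14 in K562 and -0.18 in AZA resistant cells, against -0.05, 0.00 and -0.02 as reported. In SKM1, 4 cytosolic and 5 mitochondrial genes were then at least 2-fold lower, and 3 and 4 with quantile normalization, against 1 and 2 as reported. Compartment medians moved by less than their spread between lines in each of the 6 comparisons, although the cytosolic medians of the derivatives came near 0. Levels near background limit AARS2, EARS2, LARS2 and VARS2.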

Other observations

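EPRS1 and IARS2, both higher in the resistant HL60 derivatives, lie near each other on chromosome 1 with 1 measured gene, BPNT1, between them. This order was looked up after their values were seen. BPNT1 differed by 0.81 log2 in AZA resistant and 0.62 in OR21 resistant cells. Among BPNT1 and the 10 measured genes on each outer side, 15 of 21 were higher in AZA resistant cells, against 48.5% of all genes. Their median was 0.20, against -0.02 over all genes. In OR21 resistant cells 14 of 21 were higher, against 44.3% of all genes, with a median of 0.19, against -0.07. At least 2-fold higher were 2 of 21 in AZA resistant cells, against 7.04% of all genes. The OR21 resistant count was 3 of 21, against 7.69%. Median centring was not applied to these neighbours. The neighbours at least 2-fold higher in both derivatives were MTARC2, which differed by 1.23 and 1.61, and DUSP10, at 1.57 and 1.73. MTARC1, beside MTARC2, differed by -0.74 and -0.77. Each derivative has 1 array and both share the parental control.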
